A study of Caenorhabditis elegans with 2 samples.

Results

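The respiratory chain and ATP synthase genes examined here were the protein-coding genes of the Ensembl annotation of Caenorhabditis elegans (assembly WBcel235) whose symbol begins with nuo, atp, cox, cyc, ucr or mev followed by a number. This gave 35 of the 19973 protein-coding genes on the nuclear chromosomes. By the known roles of their products they comprised 6 genes of complex I, 1 of complex II, 6 of complex III, 2 cytochrome c genes, 7 genes of complex IV, 8 of complex IV assembly and 5 of ATP synthase. The 12 protein-coding genes of mitochondrial DNA did not enter, and the lists of regions held 0 regions on that DNA. The data were ChIP-seq of an EGFP-tagged FKH-10, a forkhead transcription factor, in whole fourth-stage (L4) larvae with both sexes pooled. The strain, OP337, carries unc119(ed3) and the integrated construct wgIs377, in which fkh-10 is joined to TY1, EGFP and FLAG tags and accompanied by unc119. There was 1 group, the FKH-10 ChIP, with 2 biological replicates, so no conditions could be compared and no test between conditions was possible. Each replicate was whole animals, so the tissue in which a region was occupied cannot be told.

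In the inner mitochondrial membrane, complexes I and II pass electrons from NADH and succinate to ubiquinone, complex III passes them on to cytochrome c, and complex IV uses them to reduce oxygen. Complexes I, III and IV pump protons, and ATP synthase makes ATP as the protons flow back. Apart from the few subunits encoded in mitochondrial DNA, these proteins come from nuclear genes scattered over the chromosomes and are needed in nearly all cells.

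A deposited list held 2253 regions that met the authors' limit on the irreproducible discovery rate, a measure of how well the replicates match (IDR regions). The relaxed lists, with background included, held 30000 regions in replicate 1, 28886 in replicate 2 and 19381 after pooling. Each region has a signal, the authors' enrichment over a control library that is not analysed here, and a summit. A region belonged to a gene when its summit lay from 1000 bp upstream of a transcript start to the gene end, here called the gene's window. Its promoter window ran from 1000 bp upstream to 200 bp downstream of a start. The depth of the libraries is unknown, so no counting error could be given, and the spread between the replicates is only a rough guide to it. The gene of the tagged factor itself, fkh-10, had 0 regions within 20 kb in any of the 4 lists, so it gave no check of the labels.

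The DNA around 7 of the promoter summits is shown first, because the results below rest on regions of this kind. They cover complexes I to IV, complex IV assembly and ATP synthase, with the 2 strongest promoter regions that could be shown, those of cox-5A and cox-6B. Each line gives the plus strand within 100 bp of the summit on ce11, from the RefSeq copy of WBcel235, less any bases of an annotated untranslated region. Capitals mark stretches that occur in more than one of the windows shown.
nuo-1, complex I, chrII:11097478-11097678, plus strand: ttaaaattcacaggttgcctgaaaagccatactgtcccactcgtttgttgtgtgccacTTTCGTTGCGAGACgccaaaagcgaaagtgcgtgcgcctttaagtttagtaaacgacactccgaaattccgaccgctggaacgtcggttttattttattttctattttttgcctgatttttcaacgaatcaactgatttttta
mev-1, complex II, chrIII:10334056-10334256, plus strand: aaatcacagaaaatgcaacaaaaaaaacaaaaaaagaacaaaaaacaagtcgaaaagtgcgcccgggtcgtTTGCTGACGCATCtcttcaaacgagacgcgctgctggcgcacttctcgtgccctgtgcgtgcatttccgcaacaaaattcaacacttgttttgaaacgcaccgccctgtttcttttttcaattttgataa
ucr-2.2, complex III, chrX:15173637-15173812, plus strand: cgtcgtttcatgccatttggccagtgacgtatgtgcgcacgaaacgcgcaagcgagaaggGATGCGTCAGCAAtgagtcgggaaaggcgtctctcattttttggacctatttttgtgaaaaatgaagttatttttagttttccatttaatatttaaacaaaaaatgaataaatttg
cox-5A, complex IV, chrIII:12905096-12905296, plus strand: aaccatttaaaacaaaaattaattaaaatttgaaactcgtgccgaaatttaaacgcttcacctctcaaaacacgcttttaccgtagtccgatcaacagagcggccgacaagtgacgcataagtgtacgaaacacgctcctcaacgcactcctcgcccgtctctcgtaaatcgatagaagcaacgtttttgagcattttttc
cox-6B, complex IV, chrIII:2785949-2786147, plus strand: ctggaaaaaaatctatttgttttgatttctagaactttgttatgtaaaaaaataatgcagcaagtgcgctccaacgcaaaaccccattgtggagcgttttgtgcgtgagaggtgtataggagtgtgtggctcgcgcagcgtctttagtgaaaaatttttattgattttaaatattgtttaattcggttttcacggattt
cox-14, complex IV assembly, chrIII:10218663-10218863, plus strand: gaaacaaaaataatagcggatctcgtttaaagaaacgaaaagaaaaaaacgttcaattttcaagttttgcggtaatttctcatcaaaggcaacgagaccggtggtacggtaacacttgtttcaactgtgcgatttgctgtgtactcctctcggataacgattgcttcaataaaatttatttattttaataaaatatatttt
atp-2, ATP synthase, chrIII:5228001-5228201, plus strand: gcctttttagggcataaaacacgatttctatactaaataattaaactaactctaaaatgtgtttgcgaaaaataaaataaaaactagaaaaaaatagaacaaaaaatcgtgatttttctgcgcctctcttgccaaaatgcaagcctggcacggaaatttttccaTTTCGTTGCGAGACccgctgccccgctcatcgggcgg

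The capitals mark 14 bases that nuo-1 and atp-2 have in common, TTTCGTTGCGAGAC, and 13 bases that mev-1 and ucr-2.2 have in common, TTGCTGACGCATC in mev-1 and the opposite strand in ucr-2.2. These stretches were picked out after the sequences had been seen, and are a description only. The first was in 5 of the 2253 windows of the same length at IDR summits (0.222%), and the other in 3 (0.133%).

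Windows on chromosome I, those of cox-5B, atp-1, cyc-1, atp-3 and cox-4, are not printed here, but were searched in the same way. The windows of cyc-1 and mev-1 shared a stretch of 15 bases found in no further IDR window, those of cox-5B and cox-4 one of 14 bases, those of atp-3 and cox-4 one of 12, and those of cox-5B and cox-5A one of 11.

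Many of these genes had a region past the authors' threshold. Of the 35 genes, 14 (40%) had an IDR region in their window, against 1710 of all 19973 protein-coding genes (8.56%). The same 14 had one in the promoter window, against 6.98% of all genes. They were 6 of 7 subunit genes of complex IV (cox-4, cox-5A, cox-5B, cox-6A, cox-6B and cox-6C), 3 of 5 of ATP synthase (atp-1, atp-2 and atp-3), 2 of 6 of complex III (cyc-1 and ucr-2.2), the 1 gene of complex II (mev-1), 1 of 6 of complex I (nuo-1) and 1 of 8 of complex IV assembly (cox-14). Neither cytochrome c gene had one. Taken by kind, 13 of 27 genes for proteins of the chain or the synthase had an IDR region, and 1 of 8 assembly genes. These shares were not tested against each other.

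The relaxed lists reached further. The pooled list had a region at 28 of the 35 genes, against 45% of all genes. Replicate 1 had a region at 29 of the 35 genes, against 61.6% of all genes, and replicate 2 also at 29, against 55.1%. A region in both replicates was found at 25 of 35 genes (71.4%), against 41.9% of all genes. The relaxed lists hold background, and these shares include regions anywhere in a gene. A gene counted in both replicates need not have had their summits at the same site. With the promoter window alone, an alternative chosen after seeing the data, the count in both replicates was 23 of 35, against 24.3% of all genes. With only the 2253 strongest regions of each replicate, 11 of 35 genes had one in both (31.4%), against 5.76% of all genes.

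**Figure D1:**
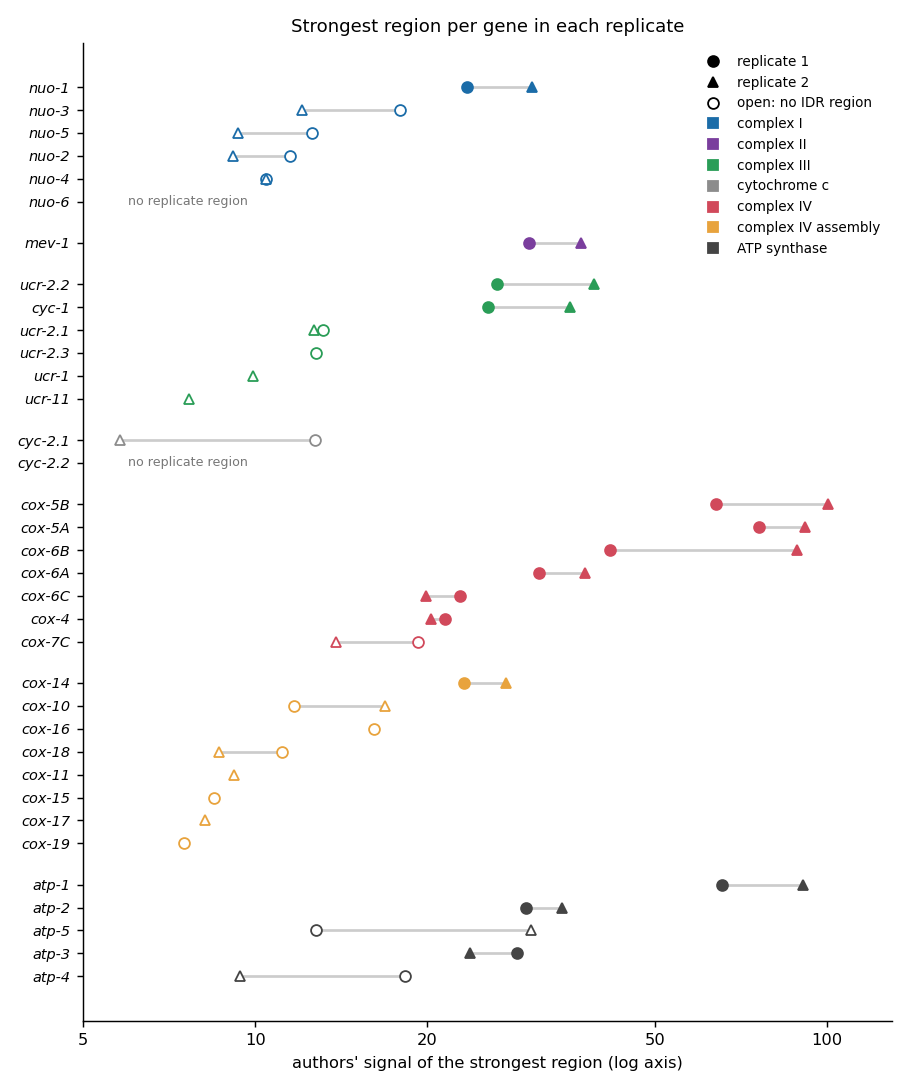
Authors' signal (log axis) of the strongest relaxed region in the window of each of the 35 genes, with circles for replicate 1 and triangles for replicate 2, joined where both exist. Genes are grouped by complex, filled symbols have an IDR region and open symbols have none. In replicate 1 every filled symbol is at 21.5 or more and every open one at 19.3 or less, while in replicate 2 the open symbol of atp-5 reaches 30.3.

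A set of 4 promoter regions stood far above the rest in signal. They were at cox-5B, cox-5A, atp-1 and cox-6B, which held ranks 20, 27, 28 and 59 of the 2253 IDR regions, and the next, at cox-6A, was at rank 678. The 16 IDR regions in the windows, the further ones in cox-6B included, had a median IDR signal of 58.8, against 59.2 over all IDR regions. The 14 at promoters had a median of 65.7 (range 41.8 to 171), against 60.3 over the 1099 IDR regions at promoters. Of the 14, 8 were above the list's median rank. The medians were therefore near those of the list. Among its 100 strongest were 4 of the 14, against 59 of the 1099 IDR regions at promoters.

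**Figure D2:**
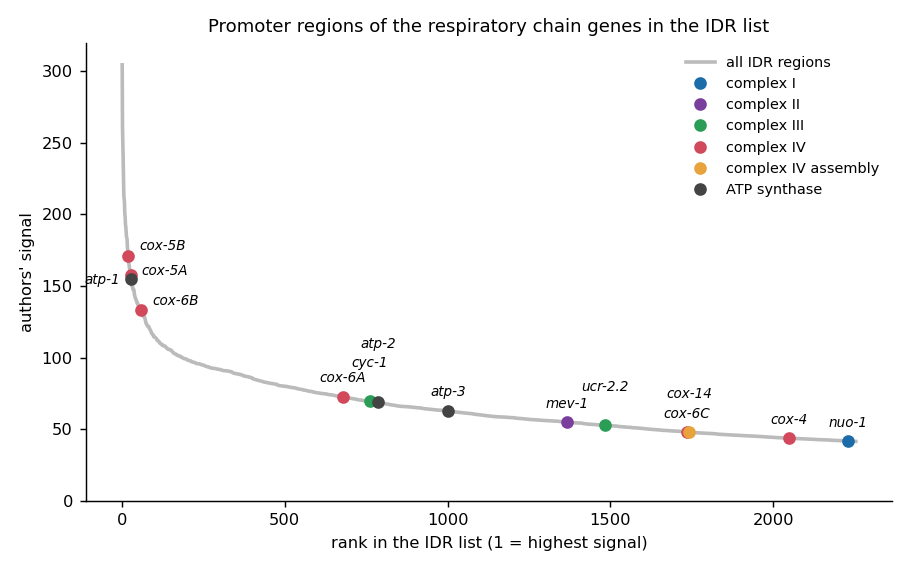
Authors' signal against rank for all 2253 IDR regions (grey line), with the 14 promoter regions of the respiratory chain and ATP synthase genes as points coloured by complex. The regions of cox-5B, cox-5A, atp-1 and cox-6B lie on the steep part of the curve, at signals of 133 to 171, and the other 10 between 41.8 and 72.6.

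Complex IV, cytochrome c oxidase, had the most regions. Its nuclear subunits surround a core encoded in mitochondrial DNA. The region at cox-5B (WBGene00000371, chromosome I, 9788516 to 9788905) had an IDR signal of 171, with 63.8 in replicate 1 and 100.3 in replicate 2. Its summit was at the same base in both replicates, 14 bp upstream of the start and in no annotated gene. The region at cox-5A (WBGene00012553, chromosome III, 12905001 to 12905390), whose sequence is given above, had an IDR signal of 158, with 75.9 in replicate 1 and 91.4 in replicate 2. It lay 295 bp upstream of the start in a wide intergenic space, in which the closest protein-coding gene upstream is 13752 bp from cox-5A. No other gene's promoter window held the summit of either region, so each had a single candidate gene by this rule. The divergent gene tba-1 begins 1100 bp upstream of cox-5B, so the cox-5B summit lay just beyond the promoter window of tba-1.

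The assignment was less direct at cox-6B (WBGene00022170, chromosome III). Its region, 2786011 to 2786108, had an IDR signal of 133, with 41.7 in replicate 1 and 88.5 in replicate 2. This was the widest gap between the replicates among the 14 (log2 ratio of replicate 2 to replicate 1, 1.09). The annotation gives the gene 2 transcripts, one beginning at 2786202, which is 155 bp downstream of the summit, and one beginning at 2699663, so the gene spans 87197 bp and the summit lies in its intron. The long window took in 3 IDR regions and, in the relaxed lists, 28 regions of replicate 1 and 30 of replicate 2. The further IDR regions had signals of 46.3 and 46.2 and lay in the promoter windows of other genes, swsn-3 and Y71H2AM.6; that at Y71H2AM.6 was in its 5′ untranslated region. The region at the short transcript was also in the promoter windows of Y71H2AM.20 and of nduc-2, a gene named after a complex I subunit, and by the nearest start it belonged to Y71H2AM.20 (99 bp) and not to cox-6B.

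The other subunit genes of complex IV had weaker regions. At cox-6A the IDR signal was 72.6, with 31.3 in replicate 1 and 37.8 in replicate 2, and the summit lay 762 bp upstream, the farthest of the 14. At cox-6C it was 48.0, with 22.8 and 19.9 in replicates 1 and 2, over the end of an annotated noncoding RNA, F29C4.9. At cox-4 it was 43.7, with 21.5 and 20.3, in an intron of a pseudogene on the opposite strand. cox-6C and cox-4 were both slightly higher in replicate 1, unlike the 4 stronger genes of the complex, and both fell outside the 2253 strongest regions of replicate 2, at ranks 2990 and 2898. The seventh subunit gene, cox-7C, had no IDR region. Its strongest relaxed regions had signals of 19.3 in replicate 1, 71 bp downstream of the start, and 13.9 in replicate 2, 188 bp upstream, so the replicates did not place a summit at the same site.

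The assembly genes of complex IV encode proteins that, in yeast and mammals, insert its heme and copper or hold its parts together while it is built. Only cox-14 among them had an IDR region (chromosome III, 10218568 to 10218957), with a signal of 47.9, 23.2 in replicate 1 and 27.5 in replicate 2. Its summit lay between cox-14, 179 bp away, and rde-4, a gene of RNA interference transcribed the other way, 117 bp away. The other 7 had weak relaxed regions or a region in 1 replicate. At cox-10, for the enzyme that makes heme O, the strongest signals were 11.7 in replicate 1 and 16.8 in replicate 2, and at cox-18, for a membrane insertion factor, 11.1 and 8.64. In replicates 1 and 2 the summits of these strongest regions, the only ones considered here, were at separate sites. They lay 142 bp downstream and 110 bp upstream of the start at cox-10, and 691 and 4881 bp downstream at cox-18. cox-16 (16.1), cox-15, for heme A synthase (8.48), and cox-19 (7.497) had regions in replicate 1 only. cox-11 (9.20) and cox-17 (8.17), for proteins of copper delivery, had them in replicate 2 only.

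ATP synthase had regions at 3 of its 5 genes. The strongest was at atp-1, for the alpha subunit of the catalytic head (WBGene00010419, chromosome I, 12652074 to 12652463), with an IDR signal of 155, 65.6 in replicate 1 and 90.9 in replicate 2. The summit lay 8 bp upstream of atp-1 and 182 bp upstream of the divergent gene mcrs-1. At atp-2, for the catalytic beta subunit, the IDR signal was 68.7, with 29.8 and 34.4 in replicates 1 and 2, and the start of C34E10.10, 217 bp away, was closer to the summit than that of atp-2, 316 bp away. At atp-3, for a subunit of the stalk that holds the head in place, it was 62.8, with 28.7 in replicate 1 and 23.7 in replicate 2, which made it the most clearly higher in replicate 1 of the 14 (log2 ratio -0.28). It ranked 938 in replicate 1 and 2296 in replicate 2.

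atp-5, for a further subunit of the stalk, had no IDR region and differed between the replicates. Its strongest region had a signal of 12.8 in replicate 1 and 30.3 in replicate 2, where it ranked 1500, and 43.1 in the pooled list. The summits of the replicates lay 296 and 232 bp upstream of the start. At atp-4, for a coupling factor subunit, the order was the other way round, with 18.3 in replicate 1 and 9.39 in replicate 2. For scale, the median signal over all relaxed regions was 9.08 in replicate 1 and 8.51 in replicate 2.

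In complex III, the cytochrome c1 gene cyc-1 (chromosome I, 8024558 to 8024947) had an IDR signal of 69.4, with 25.5 in replicate 1 and 35.5 in replicate 2. Of the paralogous core protein genes, ucr-2.2 (chromosome X, 15173517 to 15173906) had an IDR signal of 52.6, with 26.4 and 39.2 in replicates 1 and 2, although its summits in the replicates lay 94 bp apart, the most among the 14. Its paralogs had no IDR region. At ucr-2.1 the strongest regions had 13.1 and 12.7 in replicates 1 and 2. Their summits were at separate sites, 805 bp downstream and 334 bp upstream of the start, and other regions of the gene are not considered. ucr-2.3 had 12.8 in replicate 1 only. ucr-1, for the other core protein, had 9.91 and ucr-11, for a small subunit, 7.65, both in replicate 2 only.

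Neither cytochrome c gene had an IDR region, and only one had relaxed regions. cyc-2.2 had no region in any of the 4 lists, the only gene of the 35 in this position. cyc-2.1 had 12.7 in replicate 1 and 5.81 in replicate 2, and no pooled region. These summits were at separate sites, 15 and 241 bp upstream of the nearest start. The second strongest IDR region of the genome lay just beyond that window, 1055 bp upstream of cyc-2.1, with a signal of 260.5. It is in the promoter window of rpl-20, whose gene ends 110 bp before cyc-2.1 on the same strand. It also lies before the divergent gene Y17G9B.5, which begins 1227 bp upstream of cyc-2.1. Among genes with the closest IDR summit just outside the 1000 bp limit were also ucr-11, at 1245 bp, and cox-10, at 1863 bp.

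Complexes I and II gave 1 gene each. At mev-1, for the membrane cytochrome b subunit of complex II (chromosome III, 10333961 to 10334350), the IDR signal was 54.9, with 30.1 in replicate 1 and 37.2 in replicate 2, and the summit lay 121 bp upstream of mev-1 and 138 bp upstream of the divergent gene jmjd-4. At nuo-1, for the flavoprotein subunit of complex I that takes up electrons from NADH (chromosome II, 11097383 to 11097772), the IDR signal was 41.8, close to the smallest of the list, 41.5. The signals there were 23.5 in replicate 1 and 30.5 in replicate 2, with the summits 76 bp apart. Its summit was shared with the divergent ribosomal protein gene rpl-36.A, 374 bp away, and lay over 2 annotated noncoding RNAs.

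The remaining genes of complex I, the core subunit genes nuo-2 and nuo-5 and the accessory subunit genes nuo-3, nuo-4 and nuo-6, had no IDR region. nuo-3 had 17.9 in replicate 1 and 12.1 in replicate 2, nuo-5 had 12.6 and 9.33, and nuo-2 had 11.5 and 9.16. nuo-4 had 10.4 in replicate 1 and 10.5 in replicate 2, and nuo-6 had a region in the pooled list only, with 14.5. The strongest summits of replicates 1 and 2 were at separate sites. They lay 458 bp upstream and 3135 bp downstream of the start at nuo-5, and 1241 bp downstream and 78 bp upstream at nuo-2. At nuo-4 they lay 622 and 424 bp upstream, and at nuo-3 8 and 126 bp upstream of the nearest start. Taken over all 21 genes without an IDR region, the strongest region had a median signal of 12.7 in replicate 1 (15 genes, range 7.497 to 19.3) and 9.39 in replicate 2 (15 genes, range 5.81 to 30.3). At 11 of the 21 both replicates had a region, at 8 only 1 of them, and at 2 neither. At most of the 11 the strongest summits of the replicates were not within 100 bp of each other.

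The replicates gave the 14 regions a similar order. All 14 promoter regions had a summit within 100 bp in both replicates, as had 2013 of the 2253 IDR regions. The signal was higher in replicate 2 at 11 of the 14, and at 74.4% of all matched IDR regions. The median log2 ratio of replicate 2 to replicate 1 was 0.29 with an SD of 0.35 over the 14 regions, against 0.40 with an SD of 0.72 over all matched IDR regions. Spearman's rho between the replicate signals was 0.886 over the 14 regions, 0.721 over the 10 outside the 100 strongest, and 0.408 over all 2013. These values are descriptions, since regions of the same libraries are not independent and the IDR list itself was made from both replicates. Between the 10 weaker regions the signals ranged from 21.5 to 31.3 in replicate 1 and from 19.9 to 39.2 in replicate 2.

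**Figure D3:**
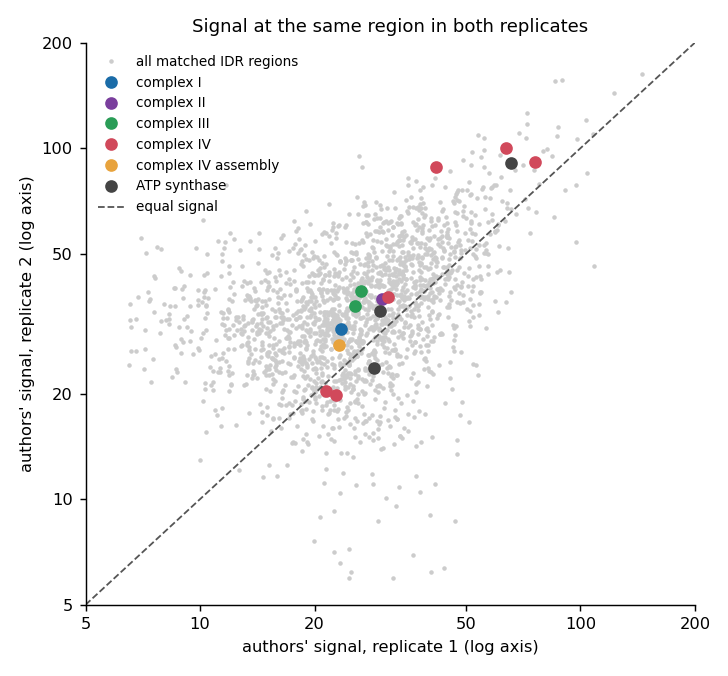
Authors' signal in replicate 2 against replicate 1 (log axes) for the 2013 IDR regions matched in both replicates (grey) and the 14 promoter regions of the respiratory chain and ATP synthase genes (coloured by complex), with the line of equal signal. Above the line lie 11 of the coloured points, and 3, those of atp-3, cox-6C and cox-4, lie below it.

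The summits lay upstream of the starts, as at most genes. All 14 were upstream of the nearest annotated start of their gene, against 94.4% of all 1442 pairs of a gene and an IDR region at its promoter. They were upstream by 8 to 762 bp with a median of 225.5 bp, against a median of 254 bp over all these pairs. Of the 14, 12 were within 350 bp upstream, as were 60.3% of all pairs. The strongest did not share a position, since cox-5B and atp-1 had their summits within 14 bp of the start and cox-5A had its summit 295 bp away. Annotated starts of worm genes are often trans-splice sites, where a leader replaces the first bases of the transcript, so these distances need not be distances to the site of initiation.

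**Figure D4:**
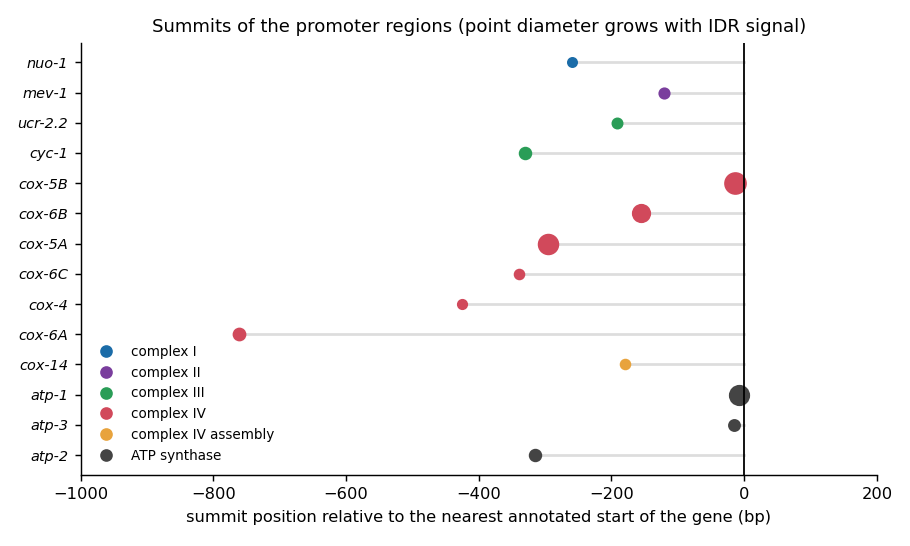
Position of the IDR summit relative to the nearest annotated start of the gene (bp, negative is upstream) for the 14 genes with a promoter region, grouped by complex, with point diameter growing with IDR signal. The vertical line is the start. All summits lie to its left, and those of cox-5B, atp-1 and atp-3 are within 15 bp of it.

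Several regions were shared with genes outside the chain. Of the 14 promoter regions, 8 were also in the promoter window of another protein-coding gene, against 321 of all 1099 promoter regions at 2 or more genes (29.2%). Besides those named above they were atp-3, shared with F27C1.2 (234 bp), and cox-6C, shared with grld-1 (460 bp). The target among such neighbours cannot be told from the regions. The 6 unshared regions were those of cox-5A, cox-5B, cox-6A, cox-4, cyc-1 and ucr-2.2, with signals of 43.7 to 171, and the shared ones had 41.8 to 155.

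Worm genes are often transcribed in operons, where closely spaced genes on 1 strand share the promoter of the first. The annotation used does not mark operons, so runs of same-strand protein-coding genes with gaps of at most 500 bp were taken in their place, a grouping chosen after the regions had been seen. Of the 35 genes, 13 followed another gene in such a run, and 2 of these (15.4%), cyc-1 and ucr-2.2, had their own IDR region, against 3.76% of the 3618 genes of all kinds in such a place. Of the 22 not in such a place 12 (54.5%) had one, against 7.70% of the 16355 other genes. The split between both kinds of place ran the same way in the genome as a whole.

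At 6 of the 13 (46.2%), an IDR region lay at the promoter of the run's first gene, compared with 13.7% of all genes in such a place, and none of the 6 had a region of its own past the threshold. The run of cyc-2.1 begins with rpl-20 (signal 260.5, with 122 in replicate 1 and 143 in replicate 2). The run of cox-11 begins with lin-54 (201, with 86.9 and 109), a gene of the DREAM complex, and that of cox-18 with Y55F3AR.2 (138, with 51.5 and 73.9). The run of nuo-4 begins with syf-2, for a splicing factor (92.6, with 42.7 and 55.4), that of ucr-11 with dad-1, for a subunit of the oligosaccharyltransferase (46.5, with 32.1 and 21.1), and that of cox-15 with rpn-9, for a proteasome subunit (46.4, with 16.1 and 28.2). Counting a region at the gene or at the first gene of its run, 20 of the 35 genes had one (57.1%), against 9.29% of all genes. Whether these runs are operons was not tested. Several of the regions at first genes also lay before a divergent gene. Upstream of cox-11 the summit was at 3602 bp, and rpl-12 began at 3672 bp. Upstream of ucr-11 it was at 1245 bp and tre-1 began at 1349 bp. Upstream of cyc-2.1 it was at 1055 bp and Y17G9B.5 began at 1227 bp. The regions upstream of cox-18 and cox-15 lay likewise before cct-8 and T06D8.9. The target among such genes cannot be told.

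The windows at the 14 summits were searched for 5 motifs on either strand within 100 bp. With 14 windows, small counts cannot be told from the shares over all IDR windows, and no test was made. The forkhead consensus (GTAAACA, with A or G as the first base and C or T as the sixth) was in 1 of the 14, that of cox-14, against 13.98% of all IDR windows. Its form GTAAACA was in 0 of 14, against 3.60%. The GAGA repeat GAGAGAG was in 0 of 14, against 20.1%, the SP1-type site CCCGCCC in 0 of 14, against 2.35%, and the GATA site TGATAA in 1, that of mev-1, against 7.19%. The windows had a median GC content of 39.8% (range 31.3 to 52.2), against 42.8% over all IDR windows, and the window of cox-5B was the richest of the 14. A match or its lack describes these letters in this window only.

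Other genes of the pathway, whose symbols fall outside the 6 prefixes, were examined from a list of 49, of which 37 were in the annotation under that symbol. The others were the genes of mitochondrial DNA, which it does not list under these symbols, and nduf-8. A promoter IDR region was present at 9 of the 37 (24.3%), compared with 6.98% of all genes, and 23 of the 37 had a relaxed region in both replicates, compared with 41.9% of all genes. The strongest was at sco-1, for a copper chaperone of complex IV (IDR signal 132, with 47.4 in replicate 1 and 71.1 in replicate 2), followed by sdha-1, for the flavoprotein subunit of complex II (91.9, with 36.3 and 68.2). ATP synthase was represented by asg-2 (80.96, with 24.0 and 48.6), asb-2 (44.5, with 13.5 and 38.0) and mai-1, for an inhibitor of the synthase (55.8, with 22.6 and 32.0), which, like sdha-1, are on chromosome X. ant-1.1, for an ADP/ATP carrier of the inner membrane, had 67.2, with 34.7 and 38.9. The complex I genes nduf-6 (55.2), nduf-11 (50.4) and nduf-7 (45.1) were weaker, and the summit at nduf-11 had no match within 100 bp in replicate 1. The summit at mai-1 lay 378 bp downstream of the nearest start of the gene. Regions were shared with other genes at nduf-6 (nars-1), asg-2 (glr-6) and ant-1.1 (T27E9.2 and abcf-2). The paralogs sdha-2, asg-1, asb-1, mai-2, ant-1.2, ant-1.3 and ant-1.4 had no IDR region, nor had isp-1, the Rieske protein gene of complex III, gas-1, a core subunit gene of complex I, or clk-1 and the 7 coq genes of ubiquinone synthesis.

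The calls of single genes depended on the replicate for the weaker regions. With the 2253 strongest regions of replicate 2 in place of the IDR list, 12 of 35 genes had a promoter region, against 6.93% of all genes, without atp-3, cox-4 and cox-6C and with atp-5. With those of replicate 1, 15 had one, all of the 14 and cox-7C, against 6.45% of all genes.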

How the data were processed

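Per the labels, ChIP-seq of EGFP-tagged FKH-10 was done in 2 biological replicates of whole L4 larvae. The authors deposited lists of regions in the narrowPeak column order on ce11 and ce10; the ce10 lists were not used. The deposited signal (column 7) is enrichment over a control library on a scale not given in the sources used here, nor are the aligner and the caller. The deposited −log10 q-values reached a ceiling shared by 76.1% of IDR regions, so signal was used for ranks. The deposited list of replicate 1 holds exactly 30000 regions. Read depth is unknown.

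Genes came from Ensembl release 115 of WBcel235, the sequence of ce11, and all region ends lay within its chromosomes. Summits were start plus column 10, and positions count from 1. Summits within 100 bp were taken as the same site. Shared stretches had at least 11 bases and 40% GC. Signals were read within their own list, apart from the ratio of the replicates, whose lists the authors made separately, so that a shift common to all regions may be one of scale. The lists of the replicates shared 0 regions of the same position and signal. The assignment of regions to genes was checked on simulated data. Python 3.11.15, pandas 2.3.3 and numpy 2.4.6 were used. Every member was named, with full values where it had an IDR region. The members, lists and windows were chosen with earlier results of these data known. Alternatives changed the threshold, windows, match distance, gene assignment and replicates.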

Additional observations from a re-analysis of the deposited data

How the results depend on the processing

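With the IDR list cut at its median signal, 8 of the 35 genes had a region in the window and 8 at the promoter, against 14 each, without cox-14, cox-4, cox-6C, mev-1, nuo-1 and ucr-2.2; 4 of the 37 other pathway genes had one, against 9. All genes fell likewise, to 4.53% in the window and 3.64% at the promoter. The strongest regions of a single replicate were also used in place of the IDR list. The counts were then 12 to 15 genes in the window (8.47% and 8.12% of all genes). They were 12 to 15 at the promoter (6.93% and 6.45% of all genes) and 8 to 10 of the other pathway genes. With each region given only to its nearest start, 11 genes kept one at the promoter (5.29% of all genes), and atp-2, cox-14 and cox-6B lost theirs. With a narrower promoter (500 bp before and 100 bp after the start), 13 kept one (5.47% of all genes), and cox-6A did not. With a wider one (2000 bp and 500 bp), 17 had one (9.50% of all genes), with cox-10, cyc-2.1 and ucr-11 added. The other counts stayed close to the main ones, and the median log2 ratio of the replicates was 0.26 to 0.29, against 0.27. The median IDR signal was 65.7 with promoter regions only, against 58.8. No paired analysis was possible because there was 1 group. Since the depth is unknown, the replicate spread is the only guide to the precision of the signals. It is a rough one, because the replicate lists were made separately and the IDR list was made from both replicates.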
